A study of Rattus norvegicus with 35 samples.

Results

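Pups of 3 rat litters, Litter2, Litter3 and Litter4, were compared with one another through the RNA of their olfactory epithelium, the lining of the nose that detects odours. The members were all the pups that the labels place in these litters, 5 in each, which made 15 of the 19 pups and 15 of the 35 arrays of the series. All were Brown Norway rats of 3 to 5 days, bought as newborns with their mothers, and the labels give their sex as not known. RNA was taken from 1 side of the nose of each pup and hybridised to 1 array per pup. Litter values below thus have n = 5 pups a litter, unless pups were left out. Values within a slide of 2 litters rest on 1 pup of each litter. Rats 21 to 25 were Litter2, rats 26 to 30 Litter3 and rats 31 to 35 Litter4, and values of a litter are given in that order. The age in days and the sex of the pups are not given litter by litter, so neither can be told apart from the litter. The adult and old rats were not used here, and the fourth litter entered only an alternative fit.

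The olfactory epithelium holds sensory neurons, each with odorant receptors on its cilia, supporting (sustentacular) cells, and basal cells that divide and replace the neurons. It covers the thin bones and cartilage of the nose next to ciliated respiratory epithelium, glands, vessels and muscle, and in a newborn these tissues are still growing. The level of a gene in such a dissected piece depends on which cells it holds and on how much of the RNA each cell makes, and in these data fewer cells of a type and less RNA per cell cannot be told apart.

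A level is the log2 of a probe's processed signal over the median of its array, so that 0 is the level of the median probe. Markers of the labelled tissue were well above background on every array. Omp, a protein of mature olfactory neurons, had a mean of 4.99 ± 0.37 (SD, n = 5) in Litter2, 5.33 ± 0.31 in Litter3 and 5.31 ± 0.27 in Litter4. The olfactory G protein subunit gene Gnal stood at 6.86, 7.04 and 6.81 in Litter2, Litter3 and Litter4, and the cyclic nucleotide channel gene Cnga2 at 6.43, 6.52 and 6.38. Gng8, a G protein subunit of immature neurons, had means of 9.07, 9.18 and 9.17, the sustentacular cell enzyme Cyp2a3 of 9.69, 9.56 and 9.54 and the secreted gland protein Bpifa1 of 12.51, 12.46 and 12.55. None of these 6 genes passed the test between any litters. Rtp2 of the mature neuron list and Lgr5 of the basal progenitor list were not above background on enough arrays to be tested.

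The slide code in the scanner file headers showed that most littermates shared a slide. The 15 arrays lay on 5 slides. Slide 1 held rats 21, 22, 23 and 25 of Litter2, slide 2 held rats 27, 29 and 30 of Litter3, and slide 3 held rats 31, 32, 33 and 35 of Litter4. The 4 pups left were on slides with 2 litters, namely rats 24 (Litter2) and 28 (Litter3) on slide 4 and rats 26 (Litter3) and 34 (Litter4) on slide 5. Slides 1 to 3 were scanned on 1 day and slides 4 and 5 on another. For 11 of the 15 pups, then, the slide held no other litter, and a fit of litter alone takes in what differs between slides. With the slide as a fixed block, the value of Litter2 against Litter3 rested on rats 24 and 28, that of Litter3 against Litter4 on rats 26 and 34, and that of Litter2 against Litter4 on both pairs through Litter3. The arrays of slide 4 had the highest local background of the 15, with a median of 69.5 for rat 24 and 69.0 for rat 28. The median signal over background ranged from 1.76 to 3.41 over the 15 arrays with a median of 2.67, and from 24493 to 27508 probes were above background on an array. With 5 arrays a litter, the precision of the differences is limited by that number.

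Some pups stood apart in genes of single tissues. Rats 30 (Litter3) and 32 (Litter4) had high levels of genes of squamous epithelium, the layered lining of mouth and skin. Krt13, a keratin of moist squamous linings, stood at 9.35 in rat 30 and 5.24 in rat 32, and Krtdap, a secreted protein of layered epithelium, at 8.95 and 6.53. In the other 13 pups both genes lay below 0. Rat 24 of Litter2 had the neutrophil granule gene Lcn2 at 9.11 against 6.96 to 7.3 in its littermates, while the median of 12 neutrophil and marrow genes, each centred on its mean of the 15 pups, was 0.78 in rat 24 and higher in its littermates rats 21 and 22, at 1.0 and 1.34. Krt13, Krtdap and Lcn2 were looked at after their values were seen.

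Which genes differ between litters of 1 strain at 3 to 5 days was asked of 27272 probes above background on at least 5 of the 15 arrays, out of 41012. A probe was called at a Benjamini-Hochberg adjusted p under 0.01 in limma. Genes named for the largest differences were picked among those without overlap of pups, so no overlap in that contrast was set by the choice. An F test over the 3 litters called 1753 probes (6.43%), 114 with the slide as a fixed block and 303 as a random block, and without rat 21, 22, 23, 25 or 33 it called 919, 730, 1039, 957 or 1164. Litter2 lay apart from both other litters in 1585 and 1551 probes, while Litter3 and Litter4 differed in 24. Some bone genes and red cell genes were among those higher in Litter2, and the growth cone gene Gap43, the helicase genes Mcm3 and Mcm6 and the cytokine gene Il33 among those lower. Muscle genes varied widely from pup to pup, but no member of the muscle list was called between any litters. The contrasts of Litter2 with Litter3 and with Litter4 share the 5 pups of Litter2, so what they have in common is not independent.

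The comparison of Litter2 with Litter3 asked what differs between 2 litters of the same age range. Higher in Litter2 were 6 of 16 tested bone genes and 3 of 18 tested red cell genes beside 3.7% of all probes, as well as Csf1, the growth factor of macrophages and osteoclasts, and 1 probe of Rsrp1. The cytokine gene Il33, the growth cone gene Gap43, the RNA-binding protein gene Khdrbs2 and the helicase genes Mcm3 and Mcm6 were lower. The test called 1585 of 27272 probes (5.81%), 1008 higher in Litter2 (3.7%) and 577 lower (2.12%). The median size of the called differences was 0.63 on the log2 scale, 207 of them (13.1%) were over 2-fold, and the median difference over all probes tested was 0.024. No gene of the bone or red cell lists was called by limma with the slide as a fixed block.

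Dmp1, a matrix protein made by osteocytes, stood at 5.56, 5.52, 5.57, 5.22 and 5.18 in Litter2, at 3.1, 3.49, 3.55, 3.81 and 3.02 in Litter3 and at 4.19, 3.61, 3.77, 3.51 and 4.22 in Litter4. Every pup of Litter2 was above every pup of the other litters, which overlapped. The difference from Litter3 was 2.01 ± 0.18 (log2, SE), a 4.04-fold higher level with an adjusted p of 3.62e-05, and it was 1.67 within slide 4. Spp1, or osteopontin, stood at 10.06, 9.99, 9.97, 9.72 and 9.59 in Litter2, at 8.44, 8.68, 8.75, 8.74 and 8.59 in Litter3 and at 9.12, 8.59, 8.71, 8.70 and 9.23 in Litter4. Again no pup of Litter2 overlapped the rest, and the difference from Litter3 was 1.23 ± 0.13 (adjusted p = 1.19e-04), with 0.97 within slide 4. Of 16 tested genes of osteoblasts and bone matrix, with 1 lower by sign and none called lower, 6 were called higher in Litter2 than in Litter3. Beside Dmp1 and Spp1 these were Phex, a peptidase of osteocytes, with a difference of 1.18, or 0.60 within slide 4, and 3 members chosen after their values were seen, namely Alpl, the bone alkaline phosphatase, with 1.09, the parathyroid hormone receptor gene Pth1r with 0.78, and Sparc, or osteonectin, with 0.71. The list's median difference was 0.76 beside 0.024 over all probes, and 0.33 within slide 4. Sp7 and Sost, further markers of bone cells, were not above background on enough arrays to be tested, and Bglap, the gene of osteocalcin, differed by 0.76 ± 0.33 (adjusted p = 0.127) and by -0.24 within slide 4. Col1a1, the collagen gene with the list's brightest probe, had means of 11.56 ± 0.33 (SD) in Litter2, 10.76 ± 0.24 in Litter3 and 10.88 ± 0.33 in Litter4, and narrowly missed the threshold against Litter3 (adjusted p = 0.0103). The summed level of the bone list, with array medians as the unit, was 11348, 13117, 10457, 9181 and 8615 in Litter2, 6108, 6097, 7830.2, 6924 and 6508 in Litter3 and 8028, 5499.9, 6431, 7192 and 8513 in Litter4. Rats 21 and 22 had the highest sums and rat 32 the lowest. The osteoclast genes Ctsk and Mmp9, both proteases that break down bone matrix, were higher by 1.25 ± 0.20 and 0.80 ± 0.18, with 0.52 and 0.50 within slide 4, 2 of 10 tested beside 3.7% of all probes higher, and the median of that list was 0.53, and 0.39 within slide 4. None of 18 cartilage genes was called, with a median of 0.14, and -0.11 within slide 4.

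Hemgn, a nuclear protein of red cell precursors, stood at 2.77, 2.34, 2.24, 2.36 and 1.57 in Litter2, at 0.61, 0.53, 0.90, 1.26 and 0.33 in Litter3 and at 1.33, 0.24, 1.06, 1.39 and 1.29 in Litter4. The lowest pup of Litter2, rat 25, lay above the highest of both other litters, rat 34, and the difference from Litter3 was 1.53 ± 0.25 (adjusted p = 0.00171). Gata1, the transcription factor of the red cell lineage, was higher by 1.38 ± 0.24, and Alas2, the first enzyme of heme synthesis in red cells, by 1.29 ± 0.25. These were 3 of 18 tested red cell genes, beside 3.7% of all probes higher. None of the 18 was called lower, though 2 were lower by sign. The list's median was 0.75, with 0.73 within slide 4. None of the 3 was called with the slide as a fixed or a random block. Hbb, the beta globin gene with the list's brightest probe, had 11.22, 11.13, 11.23, 11.32 and 11.01 in Litter2 and 11.06, 10.58, 11.01, 10.59 and 10.55 in Litter3. Its difference of 0.42 ± 0.13 did not pass (adjusted p = 0.0379), and the litters overlapped. The summed level of the red cell list was 3699, 3118, 3245, 3566 and 2686 in Litter2, 2574, 1911, 2602, 2099 and 1858 in Litter3 and 2752, 1912, 2542, 3125 and 2564 in Litter4. Among the blood cells of defence, the complement gene C1qc was higher in Litter2 by 0.59 ± 0.13, 1 of 12 macrophage genes, and Cd79b, a chain of the B cell receptor, by 1.13 ± 0.20, 1 of 9 tested genes of lymphocytes and MHC class II, both beside 3.7% of all probes higher. Csf1 stood at 1.44, 1.31, 1.24, 1.93 and 1.09 in Litter2, at -0.30, -0.70, -0.61, -0.36 and -0.34 in Litter3 and at -0.21, -0.26, -0.46, 0.085 and -0.0097 in Litter4. Litter2 lay above both other litters in every pup, the difference from Litter3 was 1.87 ± 0.15 (adjusted p = 2.78e-05), and rats 24 and 28 on slide 4 were 2.55 apart.

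Among neurons, Gap43, a protein of growing axons, stood at 8.36, 8.37, 8.48, 7.96 and 8.17 in Litter2, at 9.35, 9.05, 9.44, 8.87 and 9.02 in Litter3 and at 8.98, 9.22, 9.10, 9.37 and 8.95 in Litter4. All 5 pups of Litter2 were below the other 10, and the difference from Litter3 was -0.88 ± 0.13 (adjusted p = 9.34e-04), with -1.48 within slide 4. It was the 1 called gene of 14 tested for immature neurons, beside 2.12% of all probes lower, and the list's median was -0.28, and -0.74 within slide 4. That median ran from -0.34 to -0.18 leaving out 1 pup in turn. The median of that list's members in each pup, each centred on its mean of the 15 pups, was lowest in rat 24, at -0.66. None of 14 tested genes of mature neurons was called, with a median of -0.077 and of -0.47 within slide 4, and Omp differed by -0.34 ± 0.19 (adjusted p = 0.241). Khdrbs2 stood at -0.37, -0.13, 0.21, -0.94 and -0.24 in Litter2 and 1.5, 1.46, 1.83, 1.75 and 1.72 in Litter3, a difference of -1.95 ± 0.17 (adjusted p = 3.62e-05) with no overlap. Ptf1a, a transcription factor of inhibitory neurons and pancreas, stood at -1.48, -1.08, -1.11, -1.13 and -1.52 in Litter2, at -4.40, -5.90, -3.35, -4.33 and -4.53 in Litter3 and at -4.07, -1.56, -3.91, -4.14 and -5.81 in Litter4. It was well above background in every pup of Litter2 and in no pup of Litter3, in Litter4 only in rat 32, and it was at least 1.93-fold higher in Litter2 than in Litter3 (adjusted p = 0.00321). Such a bound sets the litter that could be measured against the lowest signal well above background on each array of the other.

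Of 38 tested cell cycle genes, 4 were called lower in Litter2, beside 2.12% of all probes, and none was called higher, though 12 were higher by sign. Mcm6 and Mcm3, subunits of the helicase that unwinds DNA for replication, differed by -0.70 ± 0.11 and -0.66 ± 0.13, cyclin E2 (Ccne2) by -0.49 ± 0.11 with 0.07 for its other probe, and the thymidylate synthase gene Tyms, chosen after its values were seen, by -0.54. Mcm6 stood at 4.29, 4.41, 4.55, 4.17 and 4.2 in Litter2, at 4.86, 5.27, 4.91, 5.00 and 5.10 in Litter3 and at 5.12, 4.98, 4.89, 5.03 and 5.38 in Litter4, with no overlap of Litter2 with the other 10 pups. Mki67, a marker of dividing cells, differed by -0.038 ± 0.21 and did not pass (adjusted p = 0.922). The list's median was -0.053, and -0.31 within slide 4. Plk4, the kinase that starts centriole duplication and no member of the list, was well above background in the 5 pups of Litter2 alone and at least 1.86-fold higher there than in Litter3 (adjusted p = 6.50e-04). Ptf1a and Plk4 were above background on enough arrays to be tested because of Litter2, and with no such filter limma still called them. Rad51b, a gene of DNA repair, was lower (-1.56 ± 0.16, adjusted p = 9.21e-05), with -2.07 within slide 4, and was well above background in 3 of 5 pups of Litter2.

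Il33, a cytokine of barrier cells, stood at 4.19, 4.74, 5.02, 3.85 and 5.00 in Litter2, at 6.21, 6.87, 6.28, 6.50 and 5.84 in Litter3 and at 6.62, 5.35, 6.10, 6.61 and 6.08 in Litter4. Rats 23 and 25, the highest of Litter2, lay below the lowest pup of the others, rat 32, and the difference from Litter3 was -1.78 ± 0.28 (adjusted p = 0.00131). A second probe of the gene differed by -1.29. Of 14 tested interferon genes Rsad2 was higher in Litter2 by 1.22 ± 0.25 and Mx2 lower (-0.72 ± 0.11), 2 called beside 5.81% of all probes. With the slide as a fixed block neither was called, and 2 other members were called higher. Of 14 circadian clock genes 5 were called, beside 5.81% of all probes. Per3, Tef and, chosen after its values were seen, Dbp were higher by 0.75, 0.78 and 0.59, while Per1 was lower (-0.69 ± 0.098) and so was Arntl, the gene of BMAL1 (-0.61). The heat shock gene Hsph1 differed by -0.66 ± 0.11, 1 of 16 immediate early and heat shock genes beside 2.12% of all probes lower. Ccn5, a secreted matrix-associated protein, differed by -1.43 ± 0.26 (adjusted p = 0.00268). Of called probes with a symbol, no overlap of pups and a level well above background in both litters, 1 of Rsrp1 differed most, by 2.29 ± 0.19 (adjusted p = 3.62e-05), and another of its probes differed by 0.71.

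**Figure D1:**
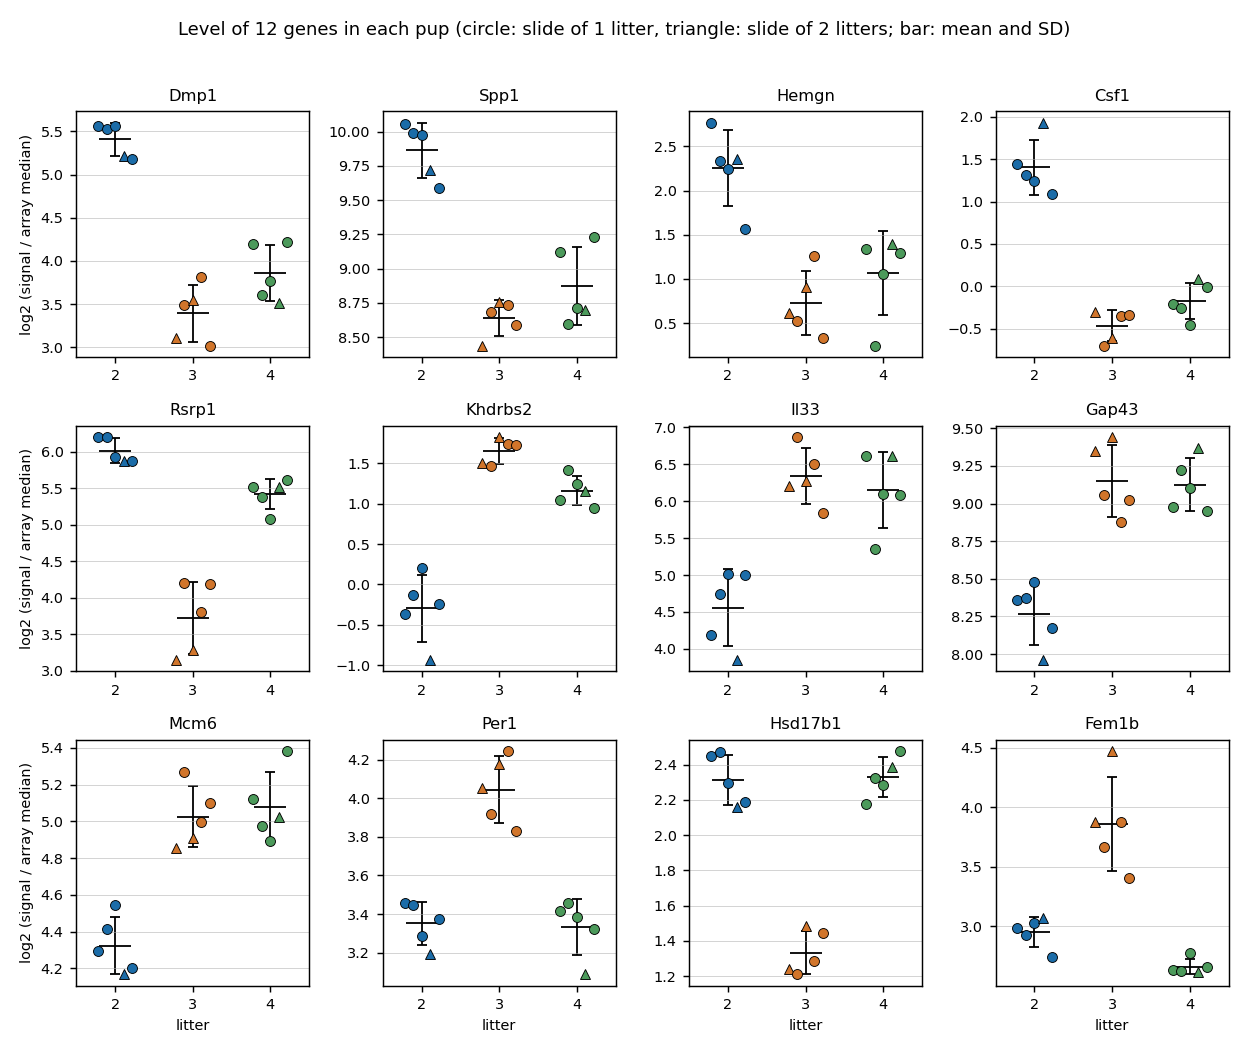
Level of 12 genes in each pup of Litter2, Litter3 and Litter4, as log2 of the processed signal over the array median, with circles for pups on a slide of 1 litter, triangles for pups on a slide of 2 litters, and bars for the mean and SD of 5 pups. Dmp1 lies at 5.18 or higher in Litter2 and at 4.22 or lower in the other litters, and Hsd17b1 lies at 1.48 or lower in Litter3 and at 2.16 or higher in the others.

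With the slide as a fixed block 281 probes were called between Litter2 and Litter3, 208 higher and 73 lower, and as a random block 511. Fixed-block values of this contrast rest on rats 24 and 28. Rat 24 was the highest pup of Litter2 for Csf1 and the lowest for Khdrbs2, Rad51b and Gap43. Of the 29 called genes chosen by the rule for named genes, 5 were still called with the fixed block, namely Rsrp1 (2.58, adjusted p = 0.00187), Csf1 (2.55, 0.00119), Khdrbs2 (-2.76, 0.00155), Rad51b (-2.07, 0.00628) and Gap43 (-1.48, 0.00286), and all 29 kept their sign. No gene of the bone, red cell, osteoclast, cell cycle, macrophage, lymphocyte or clock lists was called by limma with that block, and the values of Ccne2 (-0.81) and Hsph1 (-0.40) moved by over 1.5 times as well. The block did call 2 interferon genes and 1 immediate early or heat shock gene, all higher in Litter2. Rsad2, Mx2 and Hsph1 were not among them. With the random block 14 of the 29 were called, namely Rsrp1, Dmp1, Plk4, Csf1, Khdrbs2, Il33, Rad51b, Spp1, Gap43, Mcm6, Mx2, Per1, Per3 and Tef, and none of Hemgn, Gata1 and Alas2 (adjusted p = 0.013, 0.018 and 0.0223) or of Ctsk and Mmp9 (0.0163 and 0.0428) was. Without rat 21, 22, 23, 25, 29 or 30 the count was 906, 737, 1009, 980, 1054 or 1045, and without the 4 pups on slides with 2 litters, which leaves the first scan day alone, it was 1577, of which 76.5% were higher in Litter2 in place of 63.6%. That share was 52.4% without rat 23, 54.4% without rat 30 and 54.2% without rats 30 and 32. Leaving out 1 pup ended the call of Ptf1a (rat 22), of Alas2 (rat 21, 27 or 30), of Mcm3 and Rsad2 (7 pups each, among them rats 21 and 22), of C1qc (10 pups) and of Ccne2 and Mmp9 (11 pups each), and of no other of the 29 where it was tested. Plk4 was not tested without a pup of Litter2, since too few arrays were then above background.

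The comparison of Litter2 with Litter4 put the same question to another litter. Higher in Litter2 were 5 of 16 bone genes beside 3.35% of all probes, together with Il1rl1, the receptor of the cytokine that Il33 encodes, and Heatr5a. Il33, Gap43, the airway secretoglobin gene Scgb3a1, Fgf1 and its binding protein gene Fgfbp1 were lower. The test called 1551 probes (5.69%), 913 higher in Litter2 (3.35%) and 638 lower (2.34%). Their median size was 0.62, 209 (13.5%) were over 2-fold, and the median over all probes tested was 0.0072. With the slide as a fixed block limma called no probe of this contrast, and the direction of Fgfbp1 turned.

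Of 16 bone genes 5 were higher in Litter2, namely Dmp1 by 1.55 ± 0.18, Phex by 1.22 ± 0.18 (with the slide as a fixed block 0.15), Spp1 by 0.99 ± 0.13 and, chosen after their values were seen, Alpl by 1.09 and Sparc by 0.70. The list's median was 0.67, and 0.034 with the slide as a fixed block. Phex stood at -0.41, -0.44, -0.32, -0.84 and -0.80 in Litter2, at -2.18, -1.68, -1.45, -1.5 and -1.91 in Litter3 and at -1.53, -2.06, -2.18, -1.72 and -1.43 in Litter4. Litter2 lay above the other 10 pups in every case, and 3 of 5 pups of Litter3 were well above background. Ctsk was higher by 1.06 ± 0.20 (0.14 with the slide block), although rat 24 of Litter2 (6.13) lay below rat 35 of Litter4 (6.21). Hemgn, with 1.19 ± 0.25, was the 1 called gene of 18 in the red cell list, beside 3.35% of all probes higher. That list's median was 0.40, or 0.20 with the slide block, and 3 of its members were lower by sign, 1 of them by -1.48. Cd163, a scavenger receptor of macrophages, was higher by 1.41 ± 0.26, with rat 23 of Litter2 at -1.26 and rat 35 of Litter4 at -1.24, which was the 1 overlap, and it was well above background in 4 of 5 pups of Litter2 and 2 of 5 of Litter4.

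Heatr5a stood at 2.07, 2.29, 2.33, 2.38 and 2.21 in Litter2, at 0.86, 1.03, 1.30, 1.25 and 0.80 in Litter3 and at 0.77, 0.27, 0.50, 0.72 and 0.74 in Litter4. Litter2 was above both others, by 1.66 ± 0.12 against Litter4 (adjusted p = 7.19e-06). Cnot6, a catalytic subunit of the deadenylase complex that shortens mRNA tails, stood at 0.018, 0.055, 0.048, 0.67 and 0.15 in Litter2, at -1.55, -0.77, -0.59, -0.93 and -1.59 in Litter3 and at -1.44, -1.5, -1.76, -1.41 and -1.63 in Litter4. Rat 24 was the highest pup, and the other 4 of Litter2 lay within 0.018 to 0.15, above all 10 pups of the other litters. The difference from Litter4 was 1.74 ± 0.19 (adjusted p = 1.04e-04). Acp3, an acid phosphatase, was at 1.38 in rat 24 and between -0.97 and -0.32 in its littermates, and the difference was 1.69 ± 0.35 (adjusted p = 0.00629), with 2 of 5 pups of Litter4 well above background. Il1rl1, well above background in 3 of 5 pups of Litter4, was higher by 1.63 ± 0.32 and Il33 lower (-1.59 ± 0.28). Plk4 was at least 2.18-fold higher in Litter2 (adjusted p = 5.54e-04), and Fgf1, not well above background in any pup of Litter2, at least 1.89-fold higher in Litter4 (adjusted p = 0.00102).

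Fgfbp1 stood at -0.44, -0.080, -0.19, 1.76 and 1.31 in Litter2, at 2.61, 2.38, 1.72, 2.16 and 3.11 in Litter3 and at 3.22, 2.22, 1.86, 2.27 and 2.26 in Litter4. Rats 21, 22 and 23 were low, while rat 24 lay within the range of Litter3 and both rats 24 and 25 lay below the lowest pup of Litter4, rat 33. The difference from Litter4 was -1.89 ± 0.41 (adjusted p = 0.00816), and with the slide as a fixed block it was 0.39 (adjusted p = 0.957), so that its direction turned. Lyzl4, a lysozyme-like protein, was likewise lower in rats 21, 22 and 23 than in rats 24 and 25, with -0.81, -0.63, -0.84, 0.43 and 0.43 in Litter2 against 1.74, 1.24, 0.99, 1.37 and 0.91 in Litter4, with -1.53 ± 0.27, and -0.34 with the block. Scgb3a1 differed by -1.13 ± 0.25 (adjusted p = 0.00929), although rat 24 (8.16) lay above rat 35 (8.12). It was the 1 called gene of 14 for sustentacular cells and glands, beside 2.34% of all probes lower, and the list's median was 0.024, and -0.32 with the block. Ciliated respiratory cells had no called gene of 11 in any contrast, yet 10 of the 11 were lower by sign in Litter2 than in Litter3 and 10 than in Litter4. Their medians were -0.26 and -0.38, and with the slide as a fixed block 0.21 and 0.36, which turned the direction. The centred median of this list was -0.71, -0.45, -0.42, 0.32 and 0.15 in Litter2, low in rats 21, 22 and 23 and not in rats 24 and 25.

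Gap43 was lower (-0.86 ± 0.13, adjusted p = 9.24e-04), the 1 called gene of 14 tested for immature neurons, beside 2.34% of all probes lower. The list's median was -0.30, or -0.56 with the slide block, and ran from -0.36 to -0.19 leaving out 1 pup in turn. Mcm6, Mcm3 and Ccne2 differed by -0.76 ± 0.11, -0.71 ± 0.13 and -0.59 ± 0.11, and Mcm7, chosen after its values were seen, by -0.42. This made 4 of 38 cell cycle genes called lower, beside 2.34% of all probes, and none called higher, though 11 were higher by sign. The list's median was -0.14, or -0.65 with the slide block. The retinoid-binding protein gene Rlbp1 was lower (-1.68 ± 0.36), with 2 of 5 pups of Litter2 well above background, and so was Myh11, the smooth muscle myosin of vessel walls (-0.86 ± 0.16), 1 of 9 genes of endothelium and vessel wall beside 2.34%. Mx2 differed by -0.56 ± 0.11 and was the 1 called gene of 14 for interferon, beside 5.69% of all probes. Of 14 clock genes 2 were higher, Tef by 0.67 ± 0.11 and Per3 by 0.58 ± 0.10, beside 3.35% of all probes. Arntl was the 1 lower (-0.77 ± 0.097), beside 2.34%. Of 16 immediate early and heat shock genes Btg2, which restrains cell division, was the 1 higher, by 0.71 ± 0.14. Hsph1 was the 1 lower (-0.59 ± 0.11), with the same shares of all probes.

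With the slide as a fixed block limma called none of the probes between Litter2 and Litter4, where 3190 had an unadjusted p under 0.05 against 8075 without the block, and the random block called 219. None of the 28 called genes chosen by the rule was called with the fixed block. Beside Phex, Ctsk, Fgfbp1 and Lyzl4, other values not given as bounds moved by over 1.5 times with it. Those higher in Litter2 were Cnot6 1.11, Acp3 2.90, Il1rl1 3.26, Hemgn 0.68 and Cd163 2.32. Those lower were Rlbp1 -2.63, Il33 -2.84, Gap43 -1.5, Scgb3a1 -0.51, Ccne2 -1.19, Mcm3 -1.10, Mx2 -0.91, Arntl -0.48 and Hsph1 -0.19. Of these, Acp3 and Cd163 in Litter4 and Rlbp1 in Litter2 were well above background in 2 of 5 pups. Of the 28 genes 7 were called with the random block, namely Plk4, Cnot6, Heatr5a, Fgf1, Dmp1, Gap43 and Arntl, while Hemgn was not (adjusted p = 0.0977). The methods' t-test called 797. Without rat 21, 22, 23, 25, 32, 33 or 35 the count was 941, 738, 1036, 1011, 1037, 866 or 884, without both rats 30 and 32 it was 997, and without the 4 pups on slides with 2 litters 1885, of which 73.4% were higher in Litter2 in place of 58.9%. That share was 49.2% without rat 23 (510 higher and 526 lower), 52.0% without rat 32 and 51.7% without rats 30 and 32. Of the 28 genes 16 were called whichever pup was left out, in the fits where they were tested. Plk4, 1 of these, was not tested without a pup of Litter2, since too few arrays were then above background. Fgfbp1, Scgb3a1, Rlbp1, Acp3 and Hemgn lost the call without rat 22, 31, 32 or 35 and others, Btg2 without rat 22, 23, 32, 33 or 35, Ctsk without rat 21, 22, 23 or 32, Il1rl1 without rat 21, 22, 32 or 33, Mx2 without rat 21, 25 or 31, Cd163 without rat 21 or 22, Myh11 without rat 22 and Mcm3 without rat 35.

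The comparison of Litter3 with Litter4 asked the same of the pair without Litter2. Few genes differed: 24 of 27272 probes were called (0.088%), 12 higher in Litter3 (0.044%) and 12 lower (0.044%), and adjusted over the 3 contrasts together 125 were called, 41 higher and 84 lower. The steroid enzyme gene Hsd17b1 and 1 probe of Rsrp1 were lower in Litter3, and Fem1b, Zfp26 and the clock gene Per1 were higher. No gene of the lists of muscle, blood, bone, neurons or cell cycle was called by limma, and Per1 was the 1 list member that was.

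Hsd17b1, an enzyme that makes estradiol from estrone, stood at 2.45, 2.47, 2.3, 2.16 and 2.19 in Litter2, at 1.24, 1.21, 1.48, 1.28 and 1.44 in Litter3 and at 2.18, 2.33, 2.29, 2.39 and 2.48 in Litter4. Litter3 lay below both others without overlap, while Litter2 and Litter4 overlapped. The difference from Litter4 was -1.0 ± 0.088 (adjusted p = 1.5e-04), and -1.15 between rats 26 and 34 on slide 5. Rsrp1 stood at 6.20, 6.20, 5.93, 5.87 and 5.87 in Litter2, at 3.14, 4.2, 3.29, 3.80 and 4.19 in Litter3 and at 5.52, 5.38, 5.08, 5.51 and 5.61 in Litter4. The order Litter2, Litter4, Litter3 held without overlap, and Litter3 differed from Litter4 by -1.70 ± 0.19 (adjusted p = 0.00234), with -2.37 on slide 5 and -0.43 for its other probe. Fem1b, which recruits targets to a ubiquitin ligase, stood at 2.98, 2.93, 3.03, 3.07 and 2.74 in Litter2, at 3.87, 3.67, 4.47, 3.87 and 3.41 in Litter3 and at 2.63, 2.62, 2.77, 2.61 and 2.65 in Litter4. All 5 pups of Litter3 were above the other 10, by 1.20 ± 0.15 against Litter4 (adjusted p = 0.00397), yet its other probes differed by -0.06 and -0.14. Per1 stood at 3.46, 3.45, 3.29, 3.19 and 3.38 in Litter2, at 4.05, 3.92, 4.18, 4.24 and 3.83 in Litter3 and at 3.42, 3.46, 3.38, 3.09 and 3.32 in Litter4. Litter3 was the high litter, with a difference of 0.71 ± 0.098 (adjusted p = 0.00708) and of 0.97 on slide 5, while Litter2 and Litter4 overlapped.

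Zfp26, a zinc finger protein, was higher in Litter3 by 0.97 ± 0.12 and Atmin, a zinc finger protein of DNA damage signalling, by 0.66 ± 0.088, with 0.63 for a second probe of Atmin. The splicing factor gene Srsf5 was higher by 0.64 ± 0.092, but its other probes had -1.01 and 0.37. Mkks, a chaperonin-like protein of cilia, differed by -0.92 ± 0.12, with -0.02 for its other probe, and Hspbap1 by -0.88 ± 0.13. These 9 genes kept their sign between rats 26 and 34 on slide 5, where the values of the 5 last named were 1.04, 0.64, 0.45, -1.03 and -0.90.

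With the slide as a fixed block 3 probes were called between Litter3 and Litter4, none of them of the 9 genes, and with the random block 5, among them those of Rsrp1 and Hsd17b1. Limma called none without the 4 pups on slides with 2 litters, with 2482 at an unadjusted p under 0.05, the methods' t-test called none with 2208, and the 15 pups in 1 fit had 2226. Without rat 24 the count was 25 and without rat 30 it was 21, while for rats 21, 22, 23, 25, 26, 27, 28, 29, 31, 32, 33, 34 and 35 it was 9, 7, 8, 7, 5, 8, 7, 6, 5, 4, 5, 9 and 4, and Hsd17b1 alone of the 9 genes was called in each. After normexp background correction with quantile normalisation 47 probes were called, of which 34.0% were higher in Litter3 in place of 50%.

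Skeletal muscle genes differed between pups more than between litters. Acta1, the actin of skeletal muscle, stood at 5.69, 5.79, 4.64, 4.42 and 2.95 in Litter2, at 3.89, 5.24, 4.06, 1.14 and 6.74 in Litter3 and at 4.07, 4.78, 4.59, 4.36 and 3.66 in Litter4, and Myh3, the embryonic myosin heavy chain, at 7.11, 7.28, 5.80, 5.99 and 4.44 in Litter2, at 6.21, 6.59, 5.41, 3.06 and 7.62 in Litter3 and at 5.32, 6.47, 6.08, 6.44 and 5.09 in Litter4. Rat 30 was the highest and rat 29 the lowest in both genes, and these 2 pups are littermates on 1 slide. Of 32 tested genes of 39 none was called between any litters, and the medians were 0.17 between Litter2 and Litter3, 0.24 between Litter2 and Litter4 and 0.083 between Litter3 and Litter4. With the slide as a fixed block they were 0.20, -0.25 and -0.42, so that the latter 2 turned sign. Limma gave Acta1 differences of 0.48 ± 0.81 and 0.40 ± 0.81 for Litter2 against Litter3 and Litter4 (adjusted p = 0.718 and 0.778). The summed level of the muscle list was 1349, 1463, 1197, 1746 and 802 in Litter2, 1034, 1303, 1131, 815 and 1807 in Litter3 and 1221, 998, 1056, 1493 and 977 in Litter4. Tpm2, a tropomyosin also made outside skeletal muscle, had the list's brightest probe, at 10.32 in rat 24 against 9.08 to 9.34 in its littermates. Myh4 and Chrna1 were not above background on enough arrays to be tested.

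**Figure D2:**
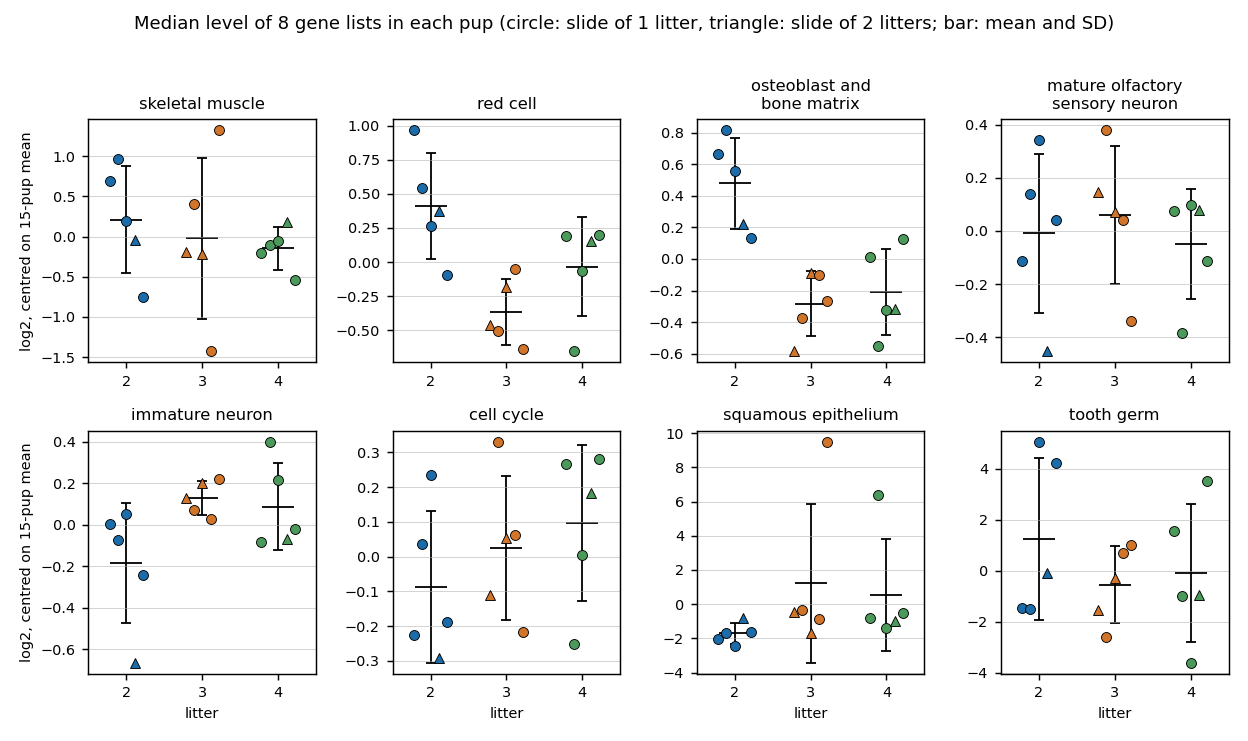
Median over the members of each of 8 gene lists in each pup, as log2 with each gene centred on its mean of the 15 pups, with circles for pups on a slide of 1 litter, triangles for pups on a slide of 2 litters, and bars for the mean and SD of 5 pups. The muscle list runs from -1.43 in rat 29 to 1.32 in rat 30 of Litter3, and the squamous epithelium list is at 9.48 in rat 30 and 6.40 in rat 32.

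Other lists had single high pups and no called gene. Of 13 squamous epithelium genes 3 were tested, and their summed level was 1228 in rat 30, 163 in rat 32 and at most 2.21 in any other pup. Krt1, a keratin of skin with the list's brightest probe, stood at 6.34 and 5.04 in these rats, and 6 members including Krt10, Ivl and Flg were not above background on enough arrays. The list's medians were -2.98 between Litter2 and Litter3, -2.61 between Litter2 and Litter4 and 0.36 between Litter3 and Litter4, and 0.77, 0.72 and 0.62 with the slide as a fixed block, so that the first 2 turned. The first 2 medians are those of Krt13 and Krtdap, well above background in 0 and 1 of 5 pups of Litter2, so that their size was not measured. Without rats 30 and 32, chosen after seeing the data, they were -0.66, -0.59 and 0.069, and the counts of called probes were 1075, 997 and 8 in place of 1585, 1551 and 24, and the part of these genes in the results was not tested beyond that. Amelx, the enamel protein amelogenin, stood at 2.33, 2.25, 8.83, 4.26 and 8.72 in Litter2, at 0.60, 1.18, -0.36, 4.62 and 5.80 in Litter3 and at 5.99, 3.58, -1.49, 2.35 and 7.89 in Litter4. Rats 23, 25 and 35 were the highest, and every litter had pups near or below 2.25. Ambn, another enamel protein, was high in the same pups 23, 25 and 35, with 6.63, 5.25 and 4.54. The summed level of the 3 tested tooth germ genes was 554, 465 and 261 there and at most 70 elsewhere, Enam, Mmp20 and Klk4 were not above background on enough arrays, and the medians were 2.46, 1.36 and -1.09 for Litter2 against Litter3, Litter2 against Litter4 and Litter3 against Litter4, or 0.18, -0.41 and -0.60 with the slide block, which turned the second. The same 3 contrasts had medians of -0.93, -0.92 and 0.10 for 13 genes of brain neurons and brain glia, the last of which turned sign after normexp with quantile normalisation, and of -1.44, -0.020 and 1.61 with the slide block. Gad1, the enzyme that makes GABA, was highest in rats 32, 30 and 33, with 1.60, 1.33 and 1.05, and the difference of Litter2 from Litter4, -1.16 ± 0.60, did not pass (adjusted p = 0.212). Without rats 24 and 28, chosen after seeing the data for their local background, the counts were 1605, 1964 and 12.

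Neutrophil and marrow granule genes, 12 tested, had medians of 1.02, 0.074 and -1.05 in the same order and none was called, with 2.01, 1.02 and -0.75 under the slide block and -0.081 for the second without rats 24 and 28. S100a9, a calcium-binding protein of neutrophils, stood at 5.19, 4.91, 3.73, 6.97 and 3.83 in Litter2, at 4.11, 3.54, 3.51, 3.96 and 3.48 in Litter3 and at 4.41, 4.59, 3.76, 4.87 and 5.68 in Litter4, highest in rats 24 and 35, and its litters overlapped. The centred median of the interferon list was highest in rat 24, at 1.04, as were those of lymphocyte and MHC class II genes at 1.06, macrophage genes at 0.53 and immediate early genes at 0.80. Median differences were 0.32, 0.21 and -0.18 for macrophage genes, 0.64, 0.55 and -0.076 for lymphocyte and MHC class II genes, 0.41, 0.31 and -0.13 for interferon genes and 0.042, 0.21 and 0.15 for immediate early and heat shock genes. With the slide block these were 0.52, 0.18 and -0.47, 1.05, 0.81 and -0.33, 1.31, 0.90 and -0.51 and 0.28, 0.18 and -0.11, where the last value turned. Without rats 24 and 28 the interferon medians were 0.051, -0.056 and -0.14, so that the second turned, as it did without rat 24 alone. Medians were 0.65, 0.26 and -0.13 for 5 adipocyte genes, 0.093, 0.17 and 0.041 for 8 genes of fasting and glucocorticoid response and 0.17, -0.026 and -0.089 for 12 genes of nerve glia, all without a called member, and the second value for glia turned sign after quantile normalisation with and without normexp. With the slide block they were 0.41, -0.18 and -0.59, 0.27, 0.11 and -0.15 and 0.12, 0.052 and -0.23, which turned the second value for adipocytes and for glia and the last for fasting. Clock genes had medians of 0.19, 0.22 and -0.090 and vessel wall genes of -0.26, -0.43 and -0.19, or 0.27, 0.095 and -0.15 and -0.13, -0.44 and -0.29 with the slide block. The part of these cell types in the litter differences was not tested.

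Basal progenitor genes, 14 tested, had none called and medians of -0.11, -0.047 and -0.027, the latter 2 of which turned sign after normexp with quantile normalisation, and with the slide as a fixed block all 3 turned, to 0.31, 0.26 and 0.064. Neurog1, a transcription factor of dividing neuron precursors, differed by 0.74 between Litter2 and Litter3 (adjusted p = 0.136), and Krt15, the keratin gene with the list's brightest probe, had 7.82, 8.15, 8.22, 9.92 and 8.54 in Litter2, with rat 24 the highest, 10.22, 9.77, 9.18, 9.17 and 10.15 in Litter3 and 10.18, 10.57, 9.44, 9.66 and 9.46 in Litter4. Remaining medians were -0.077, 0.048 and 0.13 for mature neurons, 0.013 for immature neurons between Litter3 and Litter4, -0.066 for the cell cycle, -0.035 for bone, -0.32 for red cells, 0.21 and -0.27 for osteoclasts in the latter 2 contrasts, 0.0083 and -0.10 for cartilage, -0.12 for ciliated cells and -0.058 and 0.015 for sustentacular cells and glands against Litter3 and between Litter3 and Litter4. With the slide block these were, in the same order, -0.47, -0.43 and -0.048, 0.21, -0.29, -0.28, -0.65, -0.14 and -0.55, -0.46 and -0.46, 0.12, and 0.32 and -0.085, so that the latter 2 turned for mature neurons, the first for osteoclasts and for cartilage, that of ciliated cells, and both for sustentacular cells and glands. Leaving out 1 pup turned the sign of at least 1 median of 20 of the 26 lists. No sign turned for red cells, osteoclasts, macrophages, clock, vessel wall and tooth germ, but sizes could still move. Tooth germ medians ran from 1.37 to 3.25 for Litter2 against Litter3 and from 0.49 to 2.27 for Litter2 against Litter4. For Litter3 against Litter4 the tooth germ median ran from -1.97 to -0.014. The macrophage median of Litter2 against Litter4 ran from 0.10 to 0.32, and the osteoclast median of Litter2 against Litter3 from 0.42 to 0.57. Obp1f, an odorant-binding protein of nasal glands chosen after its values were seen, had means of 1.63, 5.45 and 5.53 and an adjusted p of 0.335 for Litter2 against Litter3.

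Olfactory receptor genes made up 580 of the tested probes. Of these 9 were called lower in Litter2 than in Litter3 (1.55% beside 2.12% of all probes lower), 2 lower than in Litter4 (0.345% beside 2.34%), and none was called higher in Litter2. Or52s6 stood at -4.69, -2.92, -2.58, -3.26 and -2.77 in Litter2, at -1.13, -1.54, -1.14, -1.42 and -1.40 in Litter3 and at -2.40, -1.81, -1.36, -1.30 and -1.57 in Litter4, was not well above background in any pup of Litter2, and was at least 1.65-fold higher in Litter3 (adjusted p = 0.00211). Olr952, chosen after its values were seen, differed by -1.54 ± 0.26 from Litter3 and -1.14 ± 0.26 from Litter4. The other 7 called against Litter3, also seen first, were Or11g1, Or4b1, Or4c102, Or52s19, Or5ap2, Or8b57 and Or9i14. Limma called none between Litter3 and Litter4. The family's medians were -0.31, -0.099 and 0.21, and -0.061, -0.016 and 0.046 after normexp with quantile normalisation, and with the slide as a fixed block they were -0.56, -0.58 and -0.084, so that the last turned.

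None of 12 reference genes was called, with medians of -0.045, -0.075 and -0.026, the last of which turned under quantile normalisation. Among them Actb, the cytoplasmic actin, differed by -0.13 and -0.17 between Litter2 and the others and Gapdh, a glycolytic enzyme, by -0.040 and -0.014. Eif2s3 on chromosome X, a subunit of a translation initiation factor, stood at 5.18, 4.66, 4.79, 4.68 and 4.65 in Litter2, at 4.68, 4.86, 4.83, 5.48 and 4.62 in Litter3 and at 4.80, 4.48, 4.62, 5.44 and 5.33 in Litter4. Rats 21, 29, 34 and 35 were the highest, from every litter, and no difference passed. The X-linked demethylase gene Kdm6a stood at 4.19, 3.55, 3.63, 3.47 and 3.77 in Litter2, at 2.95, 3.07, 3.18, 3.34 and 2.69 in Litter3 and at 3.27, 2.83, 2.89, 3.65 and 3.47 in Litter4, with a difference of Litter2 from Litter3 of 0.67 ± 0.18 that did not pass (adjusted p = 0.0218). The medians of these 2 genes were 0.29, 0.18 and -0.11, or 0.071, -0.66 and -0.73 with the slide block, which turned the second, and Y-linked members of the list were not on the array.

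By the coordinates of the scanner files (rat build rn3), the probes of Spp1 (chromosome 14, 6422382 to 6422441), Ibsp (chromosome 14, 6549186 to 6549245) and Dmp1 (chromosome 14, 6637483 to 6637542) lie close together, and Ibsp, a bone sialoprotein gene looked at after its values were seen, differed by 0.50 ± 0.16 between Litter2 and Litter3 without passing (adjusted p = 0.0476). The probe of Phex is on chromosome X, 59221448 to 59221507, that of Hemgn on chromosome 5, 62955774 to 62955833, that of Gap43 on chromosome 11, 60141480 to 60141539 and that of Il33 on chromosome 1, 233849282 to 233849341. Csf1 was read at chromosome 2, 203255497 to 203255527, Rsrp1 at chromosome 5, 153709678 to 153709737, Khdrbs2 at chromosome 9, 31405125 to 31405184, Mcm6 at chromosome 13, 41066191 to 41066250 and Ptf1a at chromosome 17, 93507314 to 93507373. Those of Heatr5a and Cnot6 lie on chromosome 6, 72113191 to 72113250 and chromosome 10, 35146178 to 35146237, and those of Fgfbp1 and Acp3 on chromosome 14, 72245072 to 72245131 and chromosome 8, 109382718 to 109382777. Hsd17b1 was read on chromosome 10, 90110388 to 90110447, Fem1b on chromosome 8, 66968504 to 66968563, Zfp26 on chromosome 8, 19446402 to 19446461 and Per1 on chromosome 10, 55881463 to 55882047. Which part of each transcript a probe covers is not given in the sources used here.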

How the data were processed

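RNA was hybridised to 1-colour Agilent whole rat genome arrays, and spots were read with Agilent Feature Extraction. The processed signal is an intensity, which per the file headers was detrended over the array with no local background subtracted, and flags mark spots above background. The authors deposited a matrix of ratios too, each the intensity over the array median and a constant of the probe, used as an alternative with 16 of its columns left out. Spots of a probe were averaged, control spots and outlier flags were left out, and the intensity was divided by the array median, floored at 0.01 and taken to log2. Litters were compared with limma 3.58.1 in R 4.3.3 (data.table version 1.17.8) in 1 fit of the 15 pups, two-sided, with tables and plots in Python 3.11.15 (pandas 2.3.3, numpy 2.4.6, matplotlib 3.10.9). Of 24824 probes with a RefSeq accession 10726 were paired with a single symbol through RefSeq gene names, and other probes kept the file's gene name, so that 19970 of 41012 had a symbol. The 26 gene lists hold 424 genes, of which 386 were on the array and 343 were tested, and a list gene was read from its brightest tested probe. Named genes were, for each contrast, the 5 largest differences each way among called probes with a symbol, no overlap of pups and every array of the higher litter well above background, and up to 3 called members of each list with the smallest adjusted p, or the member with the highest mean level of a list with none. A few genes that met these rules are not reported here, though counts of probes and list members include them. Pups and lists were chosen with earlier results of these data known. Alternatives changed the scaling, background correction, floor, probe filter, flags, threshold, test, pups in the fit, and slide or scan day as a block.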

Additional observations from a re-analysis of the deposited data

Results flagged for a closer look

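For each named gene and each gene list, a pup was picked out where its gap to the nearest littermate was over 0.71 of the range of the 5 littermates, and chance picks out about 1 in 20 groups. This met 30 of 339 groups of 5, of which 9 were in rat 24, 8 in rat 32 and 6 in rat 30. Krt13, Krtdap and Lcn2 were chosen after their values were seen and members also count in their lists, so this number cannot be set against that rate. Values are log2 levels, and those of lists are medians of members centred on their means of the 15 pups. Rat 24 of Litter2 had Rad51b at -2.16 against -1.57 to -1.33, Cnot6 at 0.67 against 0.02 to 0.15, Acp3 at 1.38 against -0.97 to -0.32 and Atmin at 3.21 against 2.84 to 2.91 in its littermates. Tpm2 stood at 10.32 in rat 24 against 9.08 to 9.34, Lcn2 at 9.11 against 6.96 to 7.3 and B2m at 9.94 against 9.12 to 9.17. The centred median of immediate early and heat shock genes was 0.80 in rat 24 against -0.10 to 0.09 and that of fasting and glucocorticoid response genes 0.34 against 0.01 to 0.07. Rat 32 of Litter4 had Hemgn at 0.24 against 1.06 to 1.39, Alas2 at 7.39 against 8.37 to 8.73, Rsad2 at 1.93 against 2.88 to 3.12 and Arntl at 3.95 against 3.62 to 3.71 in its littermates. Krt1 stood at 5.04 in rat 32 against -0.30 to 0.17, Krt13 at 5.24 against -2.53 to -0.45 and Krtdap at 6.53 against -2.50 to -0.78. The centred median of squamous epithelium genes was 6.40 in rat 32 against -1.37 to -0.53. Rat 30 of Litter3 had Lcn2 at 6.33 against 7.15 to 7.44, Krt1 at 6.34 against -0.29 to 0.32, Krt13 at 9.35 against -4.2 to -1.45 and Krtdap at 8.95 against -2.22 to -0.85 in its littermates. The centred median of lymphocyte and MHC class II genes was -0.73 in rat 30 against -0.15 to 0.04 and that of squamous epithelium genes 9.48 against -1.69 to -0.33. Rat 26 of Litter3 had Mmp9 at 5.45 against 6.06 to 6.21 and Ywhaz at 6.72 against 7.0 to 7.07 in its littermates. Rat 21 of Litter2 had Eif2s3 at 5.18 against 4.65 to 4.79 in its littermates. The centred median of sex chromosome genes was 0.58 in rat 21 against -0.03 to 0.11. Rat 31 of Litter4 had Hsph1 at 3.16 against 2.65 to 2.78 in its littermates. Rat 33 of Litter4 had Fem1b at 2.77 against 2.61 to 2.65 in its littermates. Rat 29 of Litter3 had Eif2s3 at 5.48 against 4.62 to 4.86 in its littermates.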

How the results depend on the processing

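Of 36 alternatives named at the outset and 2 added after seeing the data, the authors' matrix, a floor of 0.1, a floor set before scaling, stricter flags, filters of 3 arrays a litter or all 15 arrays, the 75th percentile, all 19 pups in the fit, and a trend with robust eBayes kept every count within 1.5 times. Counts are given as higher and lower for Litter2 against Litter3, Litter2 against Litter4 and Litter3 against Litter4, and moved counts alone are given. At an adjusted p under 0.05 they were 2827 and 1633, 2363 and 1708, and 29 and 52, with 4374 by the F test, since the threshold is looser. With a fold of at least 2 they were 132 and 75, 138 and 71, and 4 and 1, with 265 by the F test. Adjusted over the 3 contrasts together, Litter3 against Litter4 had 41 and 84. With the slide as a fixed block the counts were 208 and 73, 0 and 0 (limma, 3190 at an unadjusted p under 0.05), and 2 and 1, with 114 by the F test, and as a random block (correlation 0.268) 288 and 223, 113 and 106, and 3 and 2, with 303. Without the pups on slides with 2 litters 371 were lower in the first contrast, 1384 higher in the second, and 0 and 0 were called in the third. The scan day as a fixed block gave 1550 higher and 1392 higher in the contrasts of Litter2. Quantile normalisation gave 908 lower in the first and 1426 higher in the second, and normexp with quantile 1581 and 1024, 1496 and 1026, and 31 lower in the third, with 2856 by the F test. With no filter 6 were lower in the third contrast. With only the 2 litters compared in a fit, which has fewer pups to estimate the spread, the counts were 459 and 280, 607 and 366, and 3 and 1, and by the methods' t-test 307 and 204, 460 and 337, and 0 and 0. Without rats 24 and 28 the third contrast had 7 and 5, and without rats 30 and 32 the counts were 583 higher, 515 higher, and 6 and 2, with 1146 by the F test. Leaving out 1 pup in turn, the counts ran from 434 to 1404 and 303 to 692, from 424 to 1280 and 314 to 695, and from 3 to 15 and 1 to 12, and from 730 to 2053 by the F test. Among 184 gene differences, 1 called difference reversed: Fgfbp1 between Litter2 and Litter4, -1.89, was 0.39 with the slide as a fixed block. With that block 61 others were no longer called, as 44 were not with the random block and 40 by the methods' t-test. Calls lost were 31 without the pups on slides with 2 litters, 31 with a fold of at least 2 and 26 with only 2 litters in a fit. Differences that were not called could turn too, as Bglap between Litter2 and Litter3 did with the fixed block. That of Acta1 between these litters ran from -0.29 to 1.11 leaving out 1 pup in turn. Of 78 list medians 38 moved with the fixed block. Where no cause is named, the cause was not tested. The F test gave no value for the adjustment over 3 contrasts, the fit of 2 litters and the methods' t-test. No paired analysis was possible because no rat number occurs in 2 litters; the slide block joins pups by slide alone. Low signal over background, 1.76 to 3.41, limits what dim probes show.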
